A study of Mus musculus with 20 samples.

Results

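The 44 genes described here encode enzymes that use or protect glutathione and thioredoxin, or that remove superoxide and peroxides, among 46078 genes counted in ribosome-bound RNA of mouse adipocytes. They were chosen by symbol: 21 cytosolic glutathione S-transferases (Gst) of the alpha, mu, omega, pi, theta and zeta classes, 7 glutathione peroxidases (Gpx, without the epididymal Gpx5), 6 peroxiredoxins (Prdx), 3 superoxide dismutases (Sod), catalase (Cat), and Txn1, Txnrd1, Gclc, Gclm, Gsr and Nqo1. Of these, 41 passed the filter on low counts and were tested, and Gpx2, Gsta1 and Gstm3 did not.

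All mice were males of AdipoERCre x NuTRAP on C576BL6 background, as labelled, in which tamoxifen turns on a ribosome and nuclear tag in cells that express the Adipoq-driven Cre, and all of them, controls included, had received tamoxifen. Ribosomes were pulled down from frozen epididymal adipose tissue (epiAT) and their RNA was sequenced (TRAP–seq). H mice received a high-fat diet (HFD) for 12 weeks and were 18 weeks old, and C mice ate chow to the same age. HC mice were returned to chow for 8 weeks after the same HFD and were 26 weeks old, with CC_s as their chow control. HH mice received HFD for 25 weeks and were 31 weeks old, with CC_l as control. HHC mice were returned to chow for 8 weeks after that and were 39 weeks old, with CCC as control. C, H, CC_s and HC hold 3 mice each, and CC_l, HH, CCC and HHC hold 2 each. The 12-week and 25-week series carry different library series labels, so the length of feeding, age and library series cannot be told apart.

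Superoxide dismutases turn superoxide into hydrogen peroxide, which catalase, the glutathione peroxidases and the peroxiredoxins then reduce. The peroxidases draw on glutathione, a tripeptide made by glutamate–cysteine ligase and kept reduced by glutathione reductase, and on thioredoxin, kept reduced by thioredoxin reductase, both at the cost of NADPH. Glutathione S-transferases join glutathione to electrophiles. The alpha class is known for conjugating lipid aldehydes such as 4-hydroxynonenal, and loss of Gsta4 is known for raising protein carbonylation in adipose tissue of obese mice. Many of these genes are targets of the transcription factor NRF2, which binds antioxidant response elements.

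Total counts ran from 10710277 to 36738954 per library, which puts a floor of 3 counts at 0.0815 to 0.251 CPM (counts scaled to library size, with edgeR's normalization factors). The adipocyte markers Adipoq (492 CPM or more) and Plin1 (84.9 CPM or more) were present in every library, but the pull-down also held RNA of other cells. The macrophage marker Adgre1 was present in every library at 5.19 to 239.8 CPM, the endothelial marker Pecam1 at 29.0 to 569 CPM, and the spermatid transcript Tnp2 reached 753 CPM in CC_l replicate 1 and lay at 0 in 2 libraries. Gpx5, the epididymal peroxidase, lay at 0 in 7 libraries and reached 230.0 and 1130.5 CPM in H replicates 1 and 2. In C replicates 1 and 2, HC replicate 3 and CCC replicate 2, many abundant members were lower than in most other chow or weight-loss (WL) mice. Gpx1 stood there at 712, 904, 847 and 476 CPM, against 2684 CPM or more in the others. Gpx3 differed less, at 477, 789, 445 and 396 CPM. HHC replicate 1 was also low for some members, such as Gstm1 at 237 CPM. The biological coefficient of variation over all genes was 0.68.

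Per kb of exon, 12 members stood at 100 CPM or more on average over the 20 libraries, 16 between 10 and 100, 10 between 1 and 10, and 6 below 1. Gpx1, the abundant cytosolic glutathione peroxidase, led with 2027 CPM per kb. It was followed by Gpx4, the lipid hydroperoxide peroxidase, with 758 CPM per kb, by the transferase Gstm1 with 369.7 and by the secreted peroxidase Gpx3 with 368. Cat stood at 281 CPM per kb, the cytosolic thioredoxin Txn1 at 268, the copper and zinc dismutase Sod1 at 241, and the peroxiredoxin Prdx5 at 221. Rate-limiting glutathione synthesis genes were lower, with 7.02 CPM per kb for Gclc, the catalytic subunit, and 8.36 for Gclm, the modifier subunit. Nqo1, a quinone reductase and a standard NRF2 target, stood at 3.51 CPM per kb. The gastrointestinal peroxidase Gpx2 had counts in 1 library, at 0.198 CPM in HC replicate 3.

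**Figure D1:**
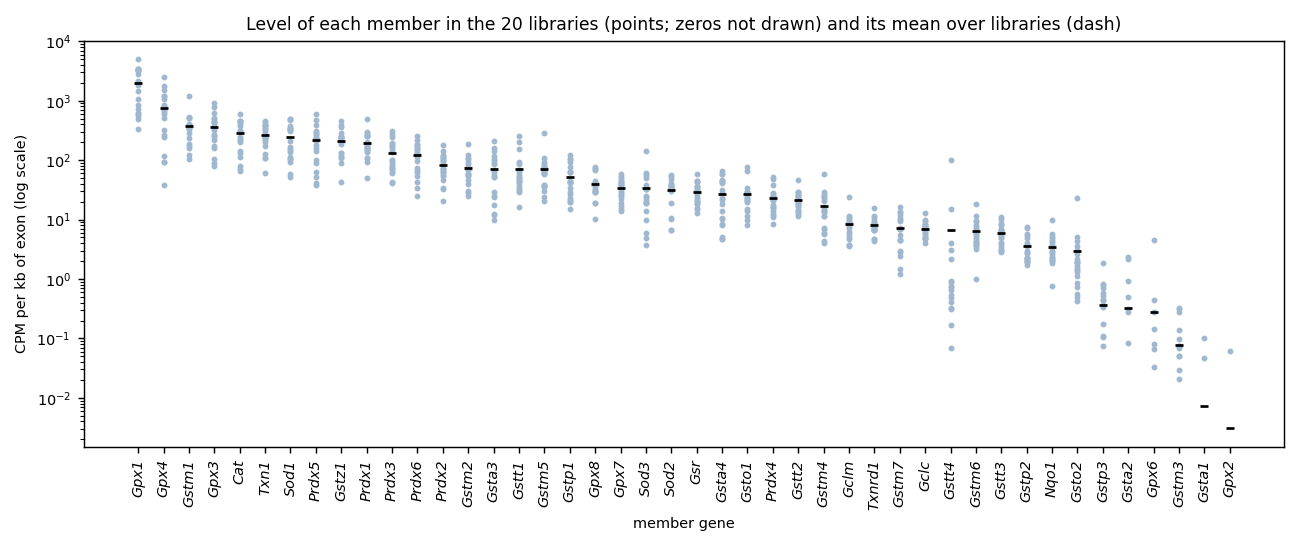
Level of the 44 members as CPM per kb of exon (log axis), with a point for each of the 20 libraries (zeros not drawn) and a dash at the mean over libraries. Means fall from 2027 for Gpx1 to under 1 for the last 6 members, and Gstt4 and Gsto2 each have a library far above the rest.

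Some levels rest on reads that cannot be placed with certainty. Of the 50-base words in the exons of Gpx4, 34.7% also occur in another annotated gene, against 33.7% for Gstp1, 54.3% for Gstp2, 49.8% for Gsta2, 90.5% for Gsta1, 28.8% for Gstm3, 21.0% for Sod2 and 18.9% for Gstm1. The exons of Prdx5 overlap those of Trmt112 on the opposite strand, and those of Gstm5 overlap 4933431E20Rik. On the opposite strand, Gstz1 also overlaps Pomt2, Prdx2 overlaps Junb and Rnaseh2a, and Gclm overlaps Gm17494. On the same strand, Gclm overlaps Gm6061, and Gstt3 overlaps Gm20441, with which it shares 12.2% of its words. The library kit did not mark strand, so reads in those overlaps cannot be assigned to either gene. Gpx3, Gsta4, Sod3, Prdx4, Gsto2 and Gpx8 shared no word with another gene, and Gsta3 shared 0.273%.

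The summed level of the 44 members varied widely within groups. It was 4778, 5530 and 19775 CPM in the 3 C mice and 9502, 6288 and 9642 CPM in H. In CC_s it was 13859, 18430 and 17773 CPM, and in HC 26531, 15360 and 3911 CPM. The C and HC groups each spanned more than the distance to their comparison group. In CC_l it was 14596 and 17265 CPM against 6969 and 8336 CPM in HH, and these groups did not overlap. In CCC it was 16470 and 3682 CPM, and in HHC 9955 and 19251 CPM. Markers moved beside these sums: the summed adipocyte marker list (14 genes) ran from 32638 to 144570 CPM in C and from 32960 to 60517 in H. It ran from 19939 to 87389 CPM in HC, from 72810 to 83259 in CC_l and from 31364 to 35523 in HH. The part of adipocyte RNA content in the members' sums was not tested, and in these bulk pull-downs fewer cells of a type and less RNA per cell cannot be told apart.

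**Figure D2:**
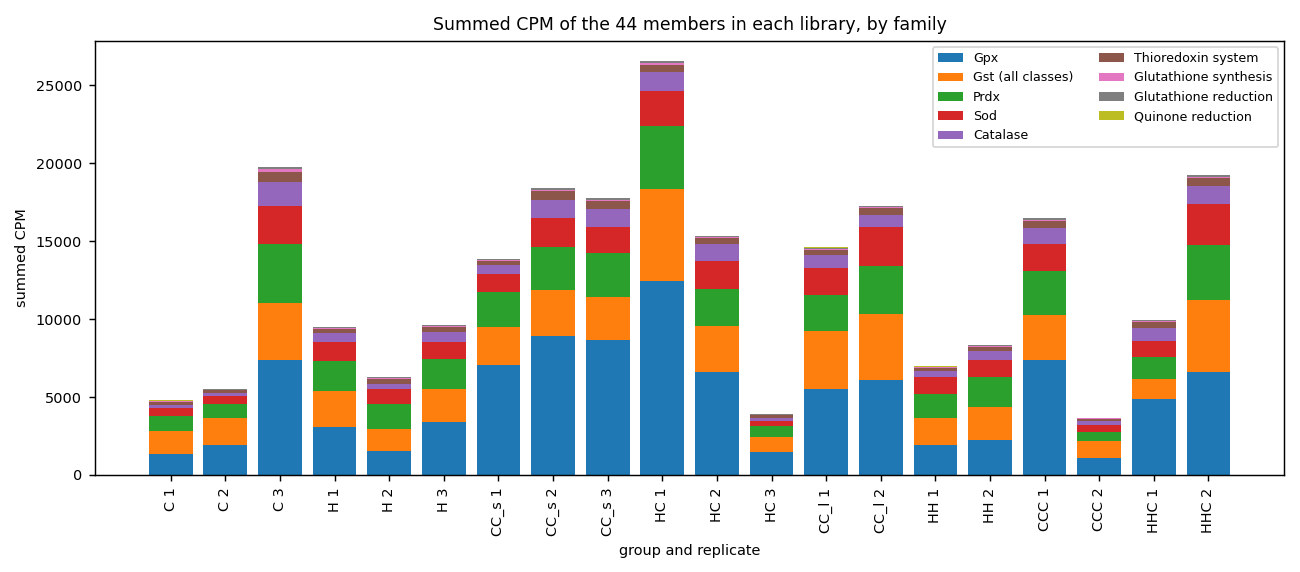
Summed CPM of the 44 members in each of the 20 libraries, stacked by family, with group and replicate on the horizontal axis. The Gpx genes take the largest share in most bars, and C 1, C 2, HC 3 and CCC 2 stand at 5530 CPM or less.

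After 12 weeks of HFD, 5 of the 41 tested members changed: Gpx3, Gsta3 and Gsta4 fell, and Sod3 and Prdx4 rose. A call here takes the study's cut-offs, a log2 fold change of at least 1 in size and an unadjusted p under 0.01, with p from the quasi-likelihood test of edgeR. The members' share called was 12.2%, beside 6.49% of all 21464 genes tested (3.57% up and 2.92% down). With Benjamini-Hochberg adjustment over all genes in edgeR, Gpx3, Sod3 and Prdx4 passed an adjusted p of 0.05, beside 2.12% of all genes. The median log2 fold change of the members was -0.35, against -0.15 over all genes, with 18 members above and 23 below 0. Without C replicate 3 it was 0.62, with 28 above and 13 below 0, so 1 library turned its direction. The groups did not overlap for 12 members (29.3%), 4 higher and 8 lower in H, beside 23.9% of all genes (13.4% higher and 10.6% lower).

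Among the peroxidases, Gpx3 fell. This gene (chr11:54902453-54910377, mm10, plus strand) encodes the secreted glutathione peroxidase of plasma, made by adipocytes among other cells. It stood at 477, 789 and 1142 CPM in C and at 163, 190.4 and 146 CPM in H, so that every H mouse lay below every C mouse. The log2 fold change was -2.27 (SE 0.50, edgeR adjusted p = 0.0246), a 4.83-fold lower level. It stayed called when any single library was left out, with values between -2.48 and -1.93.

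The alpha-class transferases Gsta3 (chr1:21240589-21265661) and Gsta4 (chr9:78182774-78209349) fell with it. Gsta3 stood at 297, 224 and 922 CPM in C and at 75.0, 42.7 and 127 CPM in H. Gsta4 stood at 40.4, 22.9 and 83.4 CPM in C and at 6.0, 6.36 and 10.7 CPM in H. Neither gene's groups overlapped, but C replicate 3 was far above the other C mice for both. The log2 fold change was -2.56 for Gsta3 (SE 0.75, edgeR adjusted p = 0.0859) and -2.67 for Gsta4 (SE 0.71, edgeR adjusted p = 0.0602). Without C replicate 3 the values were -1.68 and -2.04 and neither was called. Gsta3 was also lost without H replicate 1 (-2.50) or H replicate 2 (-2.25).

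Sod3 (chr5:52363791-52371418), the extracellular superoxide dismutase, rose. It stood at 13.9, 18.1 and 36.9 CPM in C and at 225, 187 and 123 CPM in H, without overlap. The log2 fold change was 2.96 (SE 0.61, edgeR adjusted p = 0.0186), a 7.76-fold higher level, and it stayed called without any single library (2.75 to 3.47). Prdx4 (chrX:155323918-155340754), the peroxiredoxin of the endoplasmic reticulum, stood at 29.7, 23.2 and 26.5 CPM in C and at 58.2, 101 and 56.9 CPM in H. Its log2 fold change was 1.44 (SE 0.35, edgeR adjusted p = 0.0437), with 1.12 to 1.59 when single libraries were left out.

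Markers of other cells moved with these rises. Of the 10 macrophage markers, 7 rose in H, and their sum ran from 275 to 558 CPM in C and from 790.5 to 4451.5 CPM in H. Of the 8 endothelial markers 4 rose, with sums of 331 to 849.9 CPM in C and 1492 to 2056.5 CPM in H, and of the 9 progenitor markers 4 rose, with sums of 797 to 1785 CPM and 1651 to 6771 CPM. Of the 8 lipid-associated macrophage markers 6 rose, but their sum overlapped, at 4885 to 11752 CPM in C and 5432 to 8363 CPM in H. Of the 6 tested mesothelial markers 2 fell, with a median log2 fold change of -1.44. The part of these cells in the changes of Sod3 and Prdx4 was not tested. Of the 14 adipocyte markers 3 fell and 1 rose in H, with a median log2 fold change of -0.60. Their sum ran from 32638 to 144570 CPM in C and from 32960 to 60517 CPM in H. The part of adipocyte RNA content in the falls of Gpx3, Gsta3 and Gsta4 was not tested. Epididymal epithelium markers summed to 17.6 to 1814 CPM in C and to 137 to 1895 CPM in H, overlapping between the groups, and 2 of the 6 tested rose, with a median log2 fold change of 3.37 over the 6.

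No other member was called in H by edgeR. DESeq2 called 6, beside 10.1% of all genes, the same 5 and Gstt3 (-1.09, DESeq2 adjusted p = 0.0148). Of the other members whose groups did not overlap, Gclc had a log2 fold change of -0.76, the transferases Gstt3, Gstm5, Gstt1 and Gstt4 had -1.02, -0.99, -0.60 and -2.16, Prdx5 had 1.26 and Nqo1 had 0.74. Gclc stood at 25.3, 26.8 and 48.4 CPM in C and at 18.2, 18.3 and 22.9 CPM in H. With C replicates 1 and 2, HC replicate 3 and CCC replicate 2 left out together, which leaves C with 1 mouse, 15 members were called in H, 14 of them lower, beside 8.88% of all genes. The 14 included Cat (-1.51), Gsr (-1.35), Gclc (-1.18), Gclm (-1.43), Prdx1 (-1.65), Sod1 (-1.63) and Txnrd1 (-1.04), while Prdx4 (1.55) was no longer called. These libraries were picked after abundant members were seen to be low in them, so lower values in H follow in part from the choice. The values of the abundant members in this comparison thus depend on which C mice enter it.

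**Figure D3:**
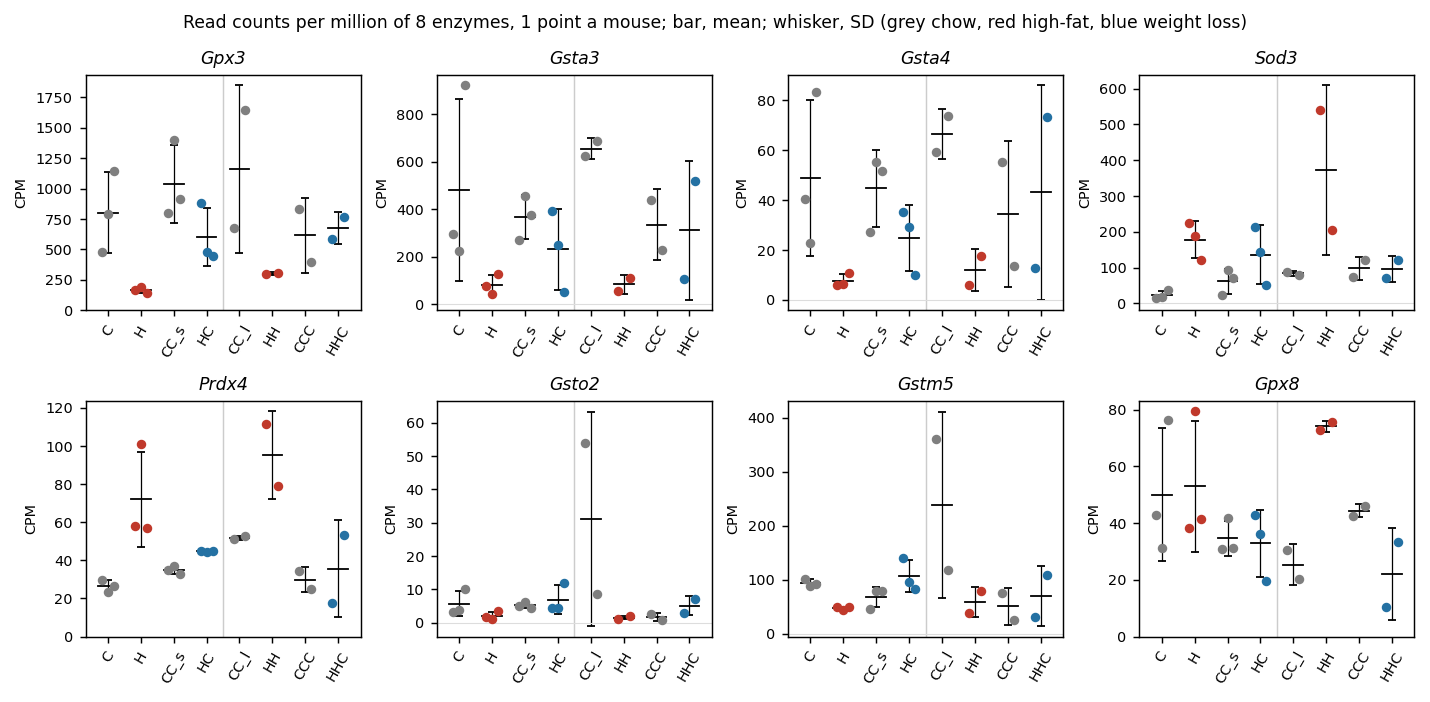
CPM of the 8 members called in any comparison or difference, in the 8 groups (grey, chow; red, HFD; blue, WL), with a point for each mouse, a bar at the mean and a whisker of 1 SD. Gpx3, Gsta3 and Gsta4 are lower and Sod3 is higher in H and HH than in their controls without overlap, and for Gsto2 and Gstm5 CC_l holds a mouse far above all others.

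Promoters from RefSeq are shown for 3 members that fell under HFD and, beside them, for Prdx4, which rose. Gsta4 and Sod3 have no entry. Gsto2, which fell in HH, and Gpx8 have entries that are not shown, in which none of the letters named below was found. The bases end just before the first annotated transcript start in the window and are on the GRCm38.p6 (mm10) build, 5′ to 3′ on the gene's strand. Capitals mark matches, on either strand, to the letters TGACNNNGC (the core of the antioxidant response element) or TTGCNNAA (a C/EBP site). The PPAR letters AGGTCA was searched too. Gsta3 fell in H and HH, Gstm5 in HH, and Gpx3 in both. The Gpx3 and Prdx4 windows also lie in an intron of a longer transcript, and the Gstm5 window overlaps exons of the antisense RNA 4933431E20Rik on the other strand, per the GENCODE annotation.
Gsta3, chr1:21240335-21240584, plus strand: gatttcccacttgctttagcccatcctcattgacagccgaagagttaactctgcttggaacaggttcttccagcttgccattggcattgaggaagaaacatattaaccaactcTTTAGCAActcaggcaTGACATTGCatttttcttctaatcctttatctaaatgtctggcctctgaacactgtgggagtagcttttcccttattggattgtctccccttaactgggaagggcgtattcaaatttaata
Gstm5, chr3:107895604-107895820, plus strand: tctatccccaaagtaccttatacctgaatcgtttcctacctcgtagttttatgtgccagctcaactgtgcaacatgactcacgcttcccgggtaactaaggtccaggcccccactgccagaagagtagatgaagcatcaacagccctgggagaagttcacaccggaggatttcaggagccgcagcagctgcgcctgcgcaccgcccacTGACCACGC
Gpx3, chr11:54902604-54902771, plus strand: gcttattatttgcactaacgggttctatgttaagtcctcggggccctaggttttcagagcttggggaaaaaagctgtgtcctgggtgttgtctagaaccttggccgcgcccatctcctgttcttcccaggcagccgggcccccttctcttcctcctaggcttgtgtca
Prdx4, chrX:155338475-155338710, minus strand: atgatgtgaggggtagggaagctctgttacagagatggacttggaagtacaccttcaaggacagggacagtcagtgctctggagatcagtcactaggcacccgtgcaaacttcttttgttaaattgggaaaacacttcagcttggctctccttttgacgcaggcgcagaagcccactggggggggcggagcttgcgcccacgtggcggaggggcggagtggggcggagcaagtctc

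The 38 members with a RefSeq entry have 51 entries, since some have several starts. In the 250 bases upstream, the antioxidant response element core was found in 7 of 51 (13.7%), beside 10.2% of 32851 RefSeq promoters. These belong to Gclm, Gsta3, Gstm5, Gstm7, Prdx1, Sod1 and Txnrd1. The C/EBP letters were found in 5 of 51 (9.8%), beside 9.56%, and the PPAR letters in 4 of 51 (7.84%), beside 14.0%. A match of letters is a description of the sequence and was not set against binding here.

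After 8 weeks of WL from 12 weeks of HFD, no member was called in HC against CC_s by edgeR or by DESeq2, beside 1.74% of all genes by edgeR. In edgeR 1 member had an unadjusted p under 0.05, beside 8.69% of all genes: Gstt3, with a log2 fold change of -0.77 (SE 0.36). The median log2 fold change of the members was 0.01, against 0.27 over all genes, with 21 above and 20 below 0. It was -0.36 (12 above, 29 below) without HC replicate 1 and 0.29 (29 above, 11 below) without HC replicate 3. The groups did not overlap for 3 members, Gstt3, Gstm5 (0.65) and Prdx4 (0.36), beside 13.8% of all genes.

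For the 5 genes called in H, the fitted values in HC had the same sign and a smaller size, and none was called. Gpx3 stood at 801, 1403 and 913 CPM in CC_s and at 878, 481 and 445 CPM in HC, with a log2 fold change of -0.79 (SE 0.48). Gsta3 stood at 269.9, 454 and 377 CPM in CC_s and at 393, 247 and 51.0 CPM in HC, a log2 fold change of -0.67 (SE 0.71). Gsta4 stood at 27.1, 55.4 and 51.6 CPM in CC_s and at 35.2, 29.4 and 10.1 CPM in HC (-0.84, SE 0.67). For both transferases the lowest HC value was that of replicate 3, the library low for most members. Sod3 stood at 22.5, 91.9 and 70.2 CPM in CC_s and at 214, 143 and 52.2 CPM in HC, with overlap, and had a log2 fold change of 1.15 (SE 0.57). Prdx4 stood at 34.9, 36.9 and 32.8 CPM in CC_s and at 44.9, 44.4 and 45.1 CPM in HC (0.36, SE 0.35). The Prdx4 groups did not overlap, yet the fitted difference was about as large as its SE.

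Whether these effects differed between H and HC was tested as a difference of differences. No member was called (edgeR; 2.99% of all genes), and 6 had an unadjusted p under 0.05, beside 11.8% of all genes. They were Gpx3 (-1.48), Sod3 (1.81), Prdx4 (1.08), Gstm5 (-1.63), Gstm7 (-1.93) and Gstt4 (-5.03). DESeq2 called 1, Gpx3 (-1.54), beside 5.24% of all genes. The 4 low libraries were picked after abundant members were seen to be low in them. Leaving them out thus tends to lower those members' H effect and raise their HC effect by construction. Without them, the difference ran from -3.13 for Gsta3 to -1.42 for Gclm among Gpx3, Gsta3, Gsta4, Gstm6, Gclm and Prdx3. These values are therefore no separate evidence of a difference. In all 20 libraries, the HC effect was thus not separated from the H effect for any member by this test.

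After 25 weeks of HFD, 6 of 41 tested members changed in HH against CC_l, a share of 14.6% beside 6.79% of all genes (4.91% up and 1.88% down). Gpx3, Gsta3 and Gsta4 fell and Sod3 rose, as they did after 12 weeks, and the transferases Gstm5 and Gsto2 fell. With adjustment over all genes in edgeR, 1 of them passed, Gsto2, beside 2.07% of all genes. The median log2 fold change of the members was -0.86, against -0.23 over all genes, with 32 members below and 9 above 0. Groups of 2 mice did not overlap for 32 members, 26 of them lower in HH, beside 55.3% of all genes not overlapping, 26.3% higher and 28.9% lower.

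Gpx3 stood at 675 and 1651 CPM in CC_l and at 295 and 309 CPM in HH, a log2 fold change of -1.95 (SE 0.60, edgeR adjusted p = 0.105). Gsta3 stood at 625 and 685 CPM in CC_l and at 54.7 and 110.2 CPM in HH (-2.99, SE 0.94, edgeR adjusted p = 0.11). Gsta4 stood at 59.4 and 73.7 CPM in CC_l and at 5.88 and 17.8 CPM in HH (-2.49, SE 0.86, edgeR adjusted p = 0.146). In each of these genes both HH mice lay below both controls. Sod3 stood at 89.1 and 78.9 CPM in CC_l and at 540.2 and 205 CPM in HH (2.15, SE 0.72, edgeR adjusted p = 0.135), both HH mice above both controls but far from each other. With 2 mice a group, leaving out 1 library ended each of these calls, mostly at a fold of like size. Gpx3 lost its call without HH replicate 1 (-1.91), HH replicate 2 (-1.98) or CC_l replicate 2 (-1.16), and Gsta3 without the same libraries (-2.57, -3.58 and -2.92). Gsta4 lost it without CC_l replicate 1 (-2.64), CC_l replicate 2 (-2.33) or HH replicate 1 (-1.90), and Sod3 without the same libraries (2.24, 2.06 and 1.29). With only HH and CC_l in the fit, 4 members were called, Gsta3, Gpx7, Gpx8 and Sod1, so that Gpx3, Gsta4, Gstm5, Gsto2 and Sod3 were not. DESeq2 called 8, beside 10.8% of all genes, the same 6 as edgeR and Gpx8 and Gstt3.

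Beside the rise of Sod3, 9 of 10 macrophage markers rose in HH, with sums of 245 to 523 CPM in CC_l and 4331.5 to 5468 CPM in HH. Of the endothelial markers 7 of 8 rose (184 to 228 CPM against 903 to 1761 CPM), and of the progenitor markers 7 of 9 rose (566 to 973 CPM against 5752 to 8427.5 CPM). The adipocyte list held 1 of 14 markers that fell and 13 with a negative log2 fold change, with a median of -1.41. The part of this shift in the lower values of adipocyte-abundant members was not tested.

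The falls of Gsto2 and Gstm5 rested on CC_l replicate 1. Gsto2 (chr19:47865534-47886324), an omega-class transferase with dehydroascorbate reductase activity, stood at 53.9 and 8.51 CPM in CC_l and at 1.18 and 2.00 CPM in HH. Its log2 fold change was -4.29 (SE 0.95, edgeR adjusted p = 0.0298), and without CC_l replicate 1 it was -2.41 and not called. Gstm5 (chr3:107895821-107898686), a mu-class transferase known for its high level in testis and brain, stood at 361 and 117 CPM in CC_l and at 39.4 and 78.6 CPM in HH. Its log2 fold change was -2.02 (SE 0.63, edgeR adjusted p = 0.11), and it was -0.99 without that library and -1.60 without HH replicate 1, called in neither. The same library held Gstt4 at 101 CPM against 3.93 CPM in CC_l replicate 2, Gpx6 at 6.31 CPM against 0, and spermatid markers summing to 3531 CPM against 12.7 CPM. HC replicate 3, with spermatid markers at 544 CPM, held the next highest Gsto2 (11.9 CPM) and Gstt4 (14.9 CPM). The part of spermatid RNA in these values was not tested.

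**Figure D4:**
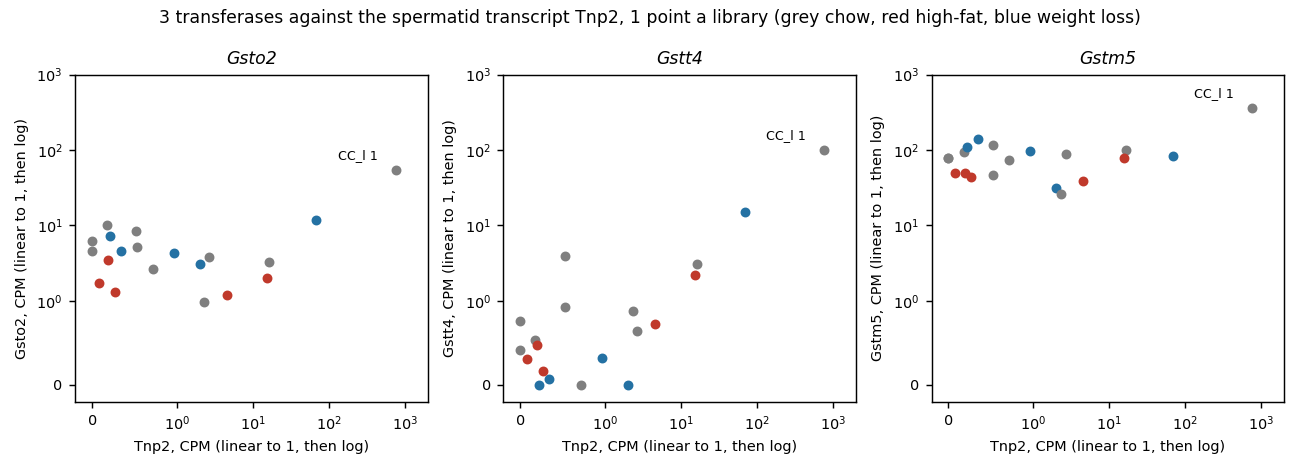
CPM of Gsto2, Gstt4 and Gstm5 against the spermatid transcript Tnp2 in the 20 libraries (both axes linear to 1 and logarithmic above; grey, chow; red, HFD; blue, WL). CC_l replicate 1 stands at 753 CPM of Tnp2 and highest for all 3 transferases.

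Gpx1, Gpx4 and Sod1 were called in HH by neither edgeR nor DESeq2 with all 20 libraries in the fit. Gpx1 stood at 2684 and 2961 CPM in CC_l and at 1039.8 and 1241 CPM in HH (-1.31, SE 1.06), and Gpx4 at 2084 and 1447 CPM against 461 and 554 CPM (-1.80, SE 1.31). Sod1 stood at 1343 and 1956 CPM in CC_l and at 374 and 544 CPM in HH (-1.85, SE 0.96). These groups did not overlap, but the SE carries the wide spread of the same genes in the other groups. Cat stood at 802 and 815 CPM against 370.5 and 522 CPM (-0.86, SE 0.96), and glutathione reductase, Gsr, at 82.5 and 84.8 CPM against 35.6 and 60.7 CPM (-0.80, SE 0.58). Gpx8, a peroxidase of the endoplasmic reticulum membrane, stood higher in HH, at 72.6 and 75.4 CPM against 30.5 and 20.2 CPM (1.54, SE 0.55, edgeR adjusted p = 0.157), called by DESeq2 (1.5, DESeq2 adjusted p = 0.0484) and not by edgeR. Gpx7, its close relative, stood at 65.1 and 53.9 CPM against 33.6 and 32.5 CPM (0.85, SE 0.56), and Prdx4 at 112 and 79.0 CPM against 51.0 and 52.6 CPM (0.88, SE 0.43). All 3 of these genes act on oxidative folding in the endoplasmic reticulum. With the 4 low libraries left out, none of which is in CC_l or HH, 12 members were called in HH, beside 11.1% of all genes, adding Gpx4, Gpx8, Gstm6, Gstt3, Gstt4 and Sod1.

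**Figure D5:**
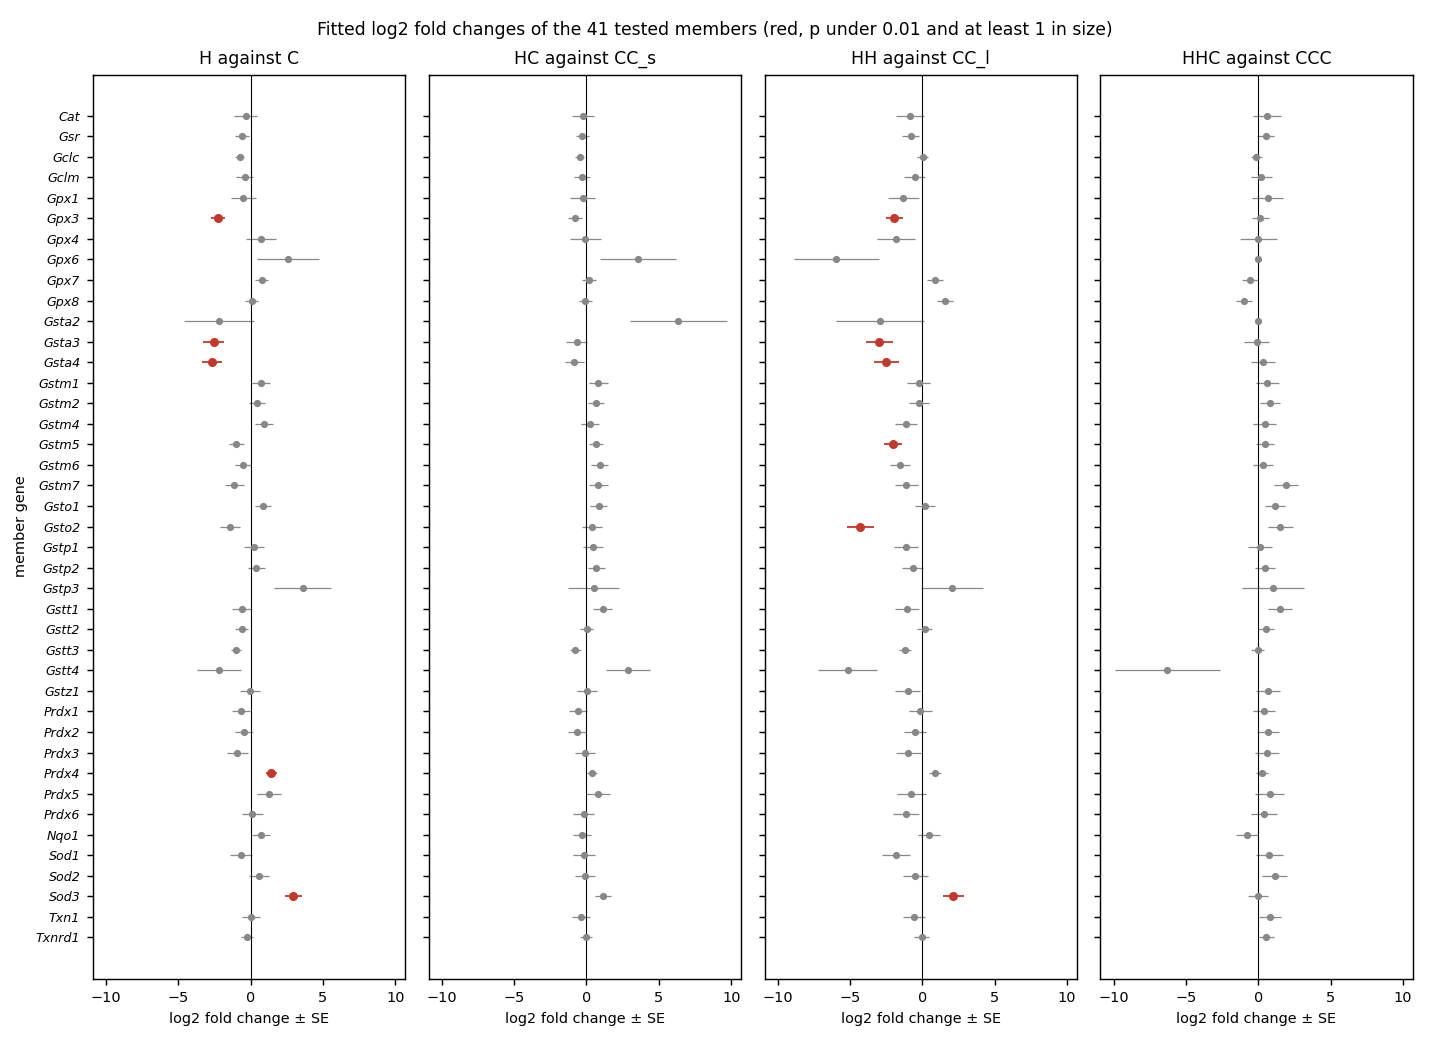
Fitted log2 fold changes (points) with 1 SE (lines) of the 41 tested members in the 4 comparisons, each group against its own chow control; red marks calls by edgeR. H and HH share 4 called members in the same direction, and HC and HHC have none. Gpx6, Gsta2, Gstp3 and Gstt4, near 0 in most libraries, have the widest errors. In HHC and CCC, Gpx6 and Gsta2 had no counts, so their points there have no error.

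After 8 weeks of WL from 25 weeks of HFD, no member was called in HHC against CCC by edgeR or by DESeq2, beside 3.12% of all genes by edgeR. In edgeR 1 member, Gstm7 (1.90, SE 0.82), had an unadjusted p under 0.05, beside 10.7% of all genes. The median log2 fold change of the members was 0.47, against -0.06 over all genes, with 31 above and 8 below 0. It was -0.02 (16 above, 22 below) without CCC replicate 2, -0.36 (12 above, 27 below) without HHC replicate 2 and 1.56 without CCC replicate 1, so its direction rested on single libraries. The groups did not overlap for 4 members, Gclc (-0.15), Gpx8 (-1.0), Gsto2 (1.52) and Txnrd1 (0.55), beside 28.8% of all genes. CCC replicate 2 was low for most members, as with Gpx1 at 476 CPM against 4628 CPM in replicate 1. Of the endothelial markers 2 of 8 fell in HHC, with a median log2 fold change of -1.99 and sums of 324 to 688 CPM in CCC and 116 to 133 CPM in HHC. None of the 9 progenitor markers was called (median -1.22, with 1735.5 to 2876 CPM against 889.7 to 1400.3 CPM), and none of the 10 macrophage markers (951 to 1002 CPM against 939 to 2395 CPM).

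Gpx3 stood at 836 and 396 CPM in CCC and at 584 and 770.1 CPM in HHC (0.14, SE 0.58). Gsta3 stood at 439.8 and 229 CPM against 104 and 517 CPM (-0.11, SE 0.87), and Gsta4 at 55.2 and 13.7 CPM against 12.7 and 73.4 CPM (0.33, SE 0.82). Sod3 stood at 74.6 and 121 CPM against 71.0 and 122 CPM (-0.02, SE 0.69). In all 4 genes the groups overlapped, and HHC replicate 1 was low for Gsta3 and Gsta4 where replicate 2 was not. Gpx8 stood at 42.6 and 45.9 CPM in CCC and at 10.6 and 33.5 CPM in HHC (-1.0, SE 0.54).

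The effect of 25 weeks of HFD was called by edgeR as different from that after WL for 2 members, Gpx8 and Gsto2. That is a share of 4.88%, beside 5.83% of all genes (4.76% up and 1.08% down), so it was not above that of all genes. For Gpx8 the difference of log2 fold changes was 2.55 (SE 0.77, edgeR adjusted p = 0.119), and it lost its call in 4 of the 8 fits that left out a library, those without CC_l replicate 2, HH replicate 2, CCC replicate 2 or HHC replicate 1 (1.95 to 2.52). Progenitor and endothelial markers had the same signs as Gpx8, with medians of 2.93 and 2.67 in HH and of -1.22 and -1.99 in HHC, and their part in the difference was not tested. For Gsto2 it was -5.81 (SE 1.27, edgeR adjusted p = 0.0413), the only member past an adjusted p of 0.05, beside 0.815% of all genes. Without CC_l replicate 1 the Gsto2 difference was -3.93 (edgeR adjusted p = 0.267). The unadjusted p was under 0.05 for 9 members, beside 15.5% of all genes: these 2 and Gpx3 (-2.08), Gsta3 (-2.88), Gsta4 (-2.82), Gstm5 (-2.49), Gstm7 (-3.01), Gstt1 (-2.61) and Sod3 (2.17). DESeq2 called 7, beside 8.95% of all genes: Gpx3, Gpx8, Gsta3, Gsta4, Gstm5, Gstm7 and Gsto2.

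Between 12 and 25 weeks of HFD no member's effect was called as different by edgeR (0.913% of all genes), with 2 unadjusted p under 0.05 (5.79% of all genes), Gsto2 (2.88) and Gpx6 (8.54), and 1 call by DESeq2 (2.6% of all genes), Gsto2. Between the HC and HHC effects none was called by edgeR (2.88% of all genes) or DESeq2, with 1 unadjusted p under 0.05 (11.8% of all genes), Gstt4. The Gpx3 effect was -2.27 in H and -1.95 in HH, that of Gsta3 -2.56 and -2.99, that of Gsta4 -2.67 and -2.49, and that of Sod3 2.96 and 2.15.

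Genes that lie side by side did not share one pattern. The 7 mu-class genes lie within 149 kb (chr3:107895821-108044894). In HC and in HHC all 6 tested members of this cluster had positive log2 fold changes (0.26 to 0.90 and 0.35 to 1.90) and in HH negative ones (-2.02 to -0.24), with Gstm5 in HH the only call by edgeR or DESeq2. Signs in HC and HHC turned for some of them when HC replicate 1, HHC replicate 2 or CCC replicate 2 was left out. In H they ran from -1.12 for Gstm7 to 0.94 for Gstm4. Gstm1, the most abundant of them, stood at 178, 271 and 566 CPM in C, 744, 345 and 575 CPM in H, 567, 511 and 520.2 CPM in CC_s and 1797, 788 and 256 CPM in HC. It stood at 604 and 545 CPM in CC_l, 539 and 425 CPM in HH, 499 and 155 CPM in CCC and 237 and 768 CPM in HHC. The groups overlapped in H, HC and HHC. The neighbour Gstm2 had log2 fold changes of 0.42, 0.66, -0.24 and 0.84 in H, HC, HH and HHC. Gsto1 and Gsto2 lie within 31.4 kb on chromosome 19, and Gsto1, the more abundant, stood at 58.6 and 54.7 CPM in CC_l and at 59.7 and 68.7 CPM in HH. Of the 3 alpha-class genes within 173 kb on chromosome 9, Gsta4 was the only one above 3 CPM in any library.

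The zeta-class transferase Gstz1, an enzyme of tyrosine breakdown, stood at 583, 682 and 1473 CPM in C and at 1019, 599 and 1022 CPM in H. Its log2 fold changes were -0.05, 0.03, -1.02 and 0.66 in H, HC, HH and HHC, none called by edgeR or DESeq2. The theta-class member Gstt3 stood at 25.9, 19.6 and 33.2 CPM in C and at 12.0, 11.1 and 15.6 CPM in H, and at 26.9, 42.7 and 30.5 CPM in CC_s and at 21.0, 22.4 and 15.3 CPM in HC. It was below its controls without overlap in H, HC and HH, with -1.02 (SE 0.36), -0.77 (SE 0.36) and -1.20 (SE 0.44), none called by edgeR. DESeq2 called it in H and in HH (-1.21, DESeq2 adjusted p = 0.0318), as edgeR did with RLE scaling.

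Glutathione synthesis and the reducing enzymes gave no call by edgeR or DESeq2 with all 20 libraries. Gclm stood at 32.5, 23.7 and 153 CPM in C and at 49.9, 54.9 and 53.0 CPM in H, a log2 fold change of -0.41 (SE 0.57). Gsr stood at 53.2, 49.8 and 163 CPM in C and at 54.3, 56.0 and 67.0 CPM in H (-0.58, SE 0.47). In both genes C replicate 3 lay above all H mice and the other C mice below them. Txnrd1, thioredoxin reductase, stood at 31.0, 33.7 and 112 CPM in C and at 49.9, 49.0 and 52.3 CPM in H (-0.22, SE 0.41), and at 47.7 and 52.9 CPM in CC_l and at 47.0 and 49.9 CPM in HH (-0.05, SE 0.51). Txn1 had log2 fold changes of 0.06, -0.36, -0.59 and 0.79 in H, HC, HH and HHC. Nqo1 stood at 4.35, 3.57 and 3.13 CPM in C and at 5.62, 7.77 and 5.08 CPM in H (0.74, SE 0.63), and at 15.3 and 3.36 CPM in the 2 HH mice around 6.71 and 6.87 CPM in CC_l.

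Cat stood at 205, 187 and 1593 CPM in C and at 562, 341 and 651 CPM in H (-0.35, SE 0.78). Sod1 stood at 409, 419 and 1880.2 CPM in C and at 591, 443 and 651 CPM in H (-0.68, SE 0.76), and the mitochondrial dismutase Sod2 at 108, 104 and 484 CPM in C and at 380.0, 329 and 323 CPM in H (0.57, SE 0.70). All 3 genes had H mice between the low and the high C mice. In HC their log2 fold changes were -0.26, -0.19 and -0.10, and in HHC 0.59, 0.75 and 1.13. Of the 3 dismutases, only the extracellular one was called by edgeR or DESeq2 with all 20 libraries in the fit. Among the peroxiredoxins Prdx1, Prdx3 and Prdx5 had 0.40, 0.60 and 0.79 in HHC and -0.13, -0.97 and -0.77 in HH, none called by edgeR or DESeq2.

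Genes around these enzymes were read from lists of glutathione turnover, other transferases, NADPH supply, thioredoxin partners, NRF2 control, selenoproteins, and metallothioneins with superoxide sources. In H, 9 of these 110 genes rose and 6 fell by DESeq2, beside 10.1% of all genes. By edgeR 7 rose and 2 fell, a share of 8.18% beside 6.49% of all genes. The largest were Ucp2, a mitochondrial carrier (3.75, SE 0.51, edgeR adjusted p = 0.00207), Tkt, transketolase of the pentose phosphate pathway (-2.92, SE 0.90), Ptges, a microsomal glutathione-dependent prostaglandin E synthase (-2.78, SE 0.61), and Anpep, an aminopeptidase that cleaves cysteinylglycine (2.68, SE 0.74). In HC 5 rose and none fell by edgeR, 4.55% beside 1.74% of all genes: Hpgds, the prostaglandin D synthase of the sigma class (3.06, SE 0.76), Anpep (2.42, SE 0.73), Cyba (2.24, SE 0.69), Ucp2 (1.85, SE 0.47) and Ephx1, an epoxide hydrolase (1.26, SE 0.35). None of the 5 passed an adjusted p of 0.05 in edgeR, where no gene of the whole table did. Beside them 7 of the 10 macrophage markers rose in HC, with sums of 245 to 367 CPM in CC_s and 631.5 to 2249.5 CPM in HC. Of the 8 lipid-associated macrophage markers 5 rose, but their sum overlapped, at 7410.5 to 8258 CPM in CC_s and 4121 to 9256 CPM in HC. The part of macrophages in these rises was not tested.

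In HH, 14 of the 110 genes rose and 2 fell by edgeR, 14.5% beside 6.79% of all genes. By DESeq2 19 rose and 6 fell, beside 10.8% of all genes. The largest by edgeR were Nox4, a hydrogen peroxide-producing oxidase, at 4.06 (SE 0.99), and Cyba and Cybb, the membrane subunits of the phagocyte oxidase, at 3.19 (SE 0.88) and 3.00 (SE 0.99). Clic1 rose by 2.93 (SE 0.70). Beside these rises 9 of the 10 macrophage markers rose in HH, and the part of macrophages in them was not tested. Nfe2l2, the gene of NRF2, rose in HH, from 34.9 and 43.7 CPM in CC_l to 105 and 80.1 CPM (1.23, SE 0.37, edgeR adjusted p = 0.0907). Its call was lost without CC_l replicate 1 (1.08), CC_l replicate 2 (1.41) or HH replicate 1 (1.03). It had -0.18 in H, -0.71 in HC and -0.23 in HHC, and the H effect less the HH effect was -1.41 (SE 0.47, called by edgeR, edgeR adjusted p = 0.848). Its repressor Keap1 had -0.41, -0.50, -0.75 and 0.61 in H, HC, HH and HHC. Of its standard targets Hmox1 had 1.07, 0.78, 1.71 and 1.44, Srxn1 -0.12, 0.14, -0.37 and 0.61, Slc7a11 1.37, 2.69, -0.16 and 2.64, and G6pdx 0.99, 0.93, -0.09 and 1.16, none called by edgeR. DESeq2 called Slc7a11 in HC. The synthesis gene Gss had -0.28, -0.06, -0.33 and -0.89. The membrane and mitochondrial transferases Mgst1, Mgst3 and Gstk1 had -0.03, -1.66 and -0.66 in HH, and the selenium carrier Selenop had 1.63, none called by edgeR. DESeq2 called Selenop. In HHC no listed gene was called by edgeR, beside 3.12% of all genes. In that edgeR test 9 of the 110 had an unadjusted p under 0.05, beside 10.7% of all genes. DESeq2 called 1, the glutaredoxin gene Glrx, beside 5.52% of all genes.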

How the data were processed

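The deposited table holds gene counts for all 20 libraries. Per the submitters' processing notes and the study's methods, the authors trimmed reads with Trim Galore 0.6.6 after FastQC 0.11.9, aligned them to mm10 with HISAT2 2.2.1 and counted them with featureCounts of Subread 2.0.1; the annotation and the handling of strand and read pairs are not given in the sources used here. Between 74.4% and 89.2% of the nonzero counts of a library were even numbers, so fits were repeated on halved counts. Ensembl identifiers were matched to symbols, coordinates and exon lengths through GENCODE, with a symbol for 45229 of 46078 genes. Shared sequence was measured as 50-base words of exons found in another gene. Promoters came from RefSeq.

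Genes were filtered with filterByExpr over the 8 groups, and 21464 were fitted together with edgeR 4.0.16 in R 4.3.3 (TMM factors, quasi-likelihood, 1 mean a group). Each HFD or WL group was set against its own chow control, and pairs of such effects were compared as contrasts of the same fit. Calls needed p under 0.01 and a log2 fold change of at least 1 in size, and Benjamini-Hochberg adjustment ran over all genes. Non-overlap means that all values of a group lay above or below all those of its control. The study calls the replicates biological, and p-values measure the spread between them. The fit was tested on data simulated for H against C. Of 100 genes changed by a log2 fold of 2 in size it recovered 47, and of 100 changed by 3 it recovered 54. It called 170 of 21264 unchanged genes. A gene without a call can thus hold a change of that size.

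In the text, values in every library were given for Gpx3, Gsta3, Gsta4, Sod3 and Gstm1. The plot of called members by group shows every library for the members called by edgeR. The 7 added enzymes, the 3 Sod genes and the 3 most abundant Gst, Gpx and Prdx genes per kb were described too. Apart from the genes just named, these and the other called members were given in some groups only, or as log2 fold changes only. Members whose groups did not overlap were all named for H, HC and HHC, but only in part for HH. For 4 comparisons the largest called genes of the pathway lists, up to 4, and a fixed set of NRF2-related genes were named. Members and lists were chosen with earlier results of these data known. Alternatives were DESeq2 1.42.0, other scalings, no filter, a replicate block, only the compared groups, and leaving out each library. Leaving out 4 low libraries together and crossing the numbers of the block were chosen after seeing the data. The 4 libraries were picked on low values of abundant members, so the fits without them are not independent of the members.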

Additional observations from a re-analysis of the deposited data

Results flagged for a closer look

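For Gsto2, the effect of 25 weeks of HFD differed from the effect left after WL. Its log2 fold change against the chow control was -4.29 for HH and 1.52 for HHC, and the difference of -5.81 (SE 1.27, edgeR adjusted p = 0.0413) passed the threshold over all genes. Both HH mice lay below both CC_l mice, and both HHC mice above both CCC mice. Without CC_l replicate 1, the library with 753 CPM of the spermatid transcript Tnp2, the difference was -3.93 (edgeR adjusted p = 0.267). Over the 16 alternative fits it ran from -6.67 to -3.93 and was called in each, and the edgeR or DESeq2 adjusted p ran from 0.000175 to 0.278 and was under 0.05 in 4 of them. The part of spermatid RNA was not tested.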

How the results depend on the processing

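Of 2240 fold changes of single members recomputed, 2157 kept their side of the threshold, 36 lost and 47 gained a call, and none that was called turned sign; 181 uncalled values did. Members called numbered 5 in H, 6 in HH and 0 after either WL, and 0, 2, 0 and 0 for the differences of H and HC, HH and HHC, H and HH, and HC and HHC. With an adjusted p under 0.05 (chosen after seeing the data for the differences) there were 3 in H, 1 in HH and 1 for HH and HHC. Without the filter there were 4 in HC, 3 in HHC, and 8, 8, 5 and 1 for the differences. Calls over all genes tested moved too, in HC from 336 up and 37 down to 1698 and 62. In HHC they went from 96 and 573 to 380 and 885. For H and HC they went from 103 and 538 to 187 and 1886, and for HH and HHC from 1021 and 231 to 1383 and 806. For H and HH they went from 65 and 131 to 450 and 417, and for HC and HHC from 580 and 38 to 1550 and 107. DESeq2 gave 1, 7 and 1 for the first 3 differences, beside 5.24%, 8.95% and 2.6% of all genes. RLE scaling gave 4 for HH and HHC, where it called 804 genes up and 360 down. Fitting only the compared groups gave 4 in HH, of which 1, Gsta3, was among the 6, and 1 for H and HC and 1 for HH and HHC. Over all genes these fits called 1505 up and 284 down in HH, 112 and 631 for H and HC, and 536 and 95 for HH and HHC. With the 4 low libraries left out, chosen after seeing the data, there were 15 in H, 1 in HC (Gstm6), 12 in HH, 6 for H and HC and 1 for H and HH (Prdx1). The cause of these shifts was not tested.

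Leaving out 1 library gave 4 to 6 in H, 0 in HC and 0 for H and HC. Over all genes, calls in H ran from 445 up and 313 down without H replicate 2 to 878 and 940 without C replicate 3. Those in HC ran from 130 and 28 without CC_s replicate 3 to 568 and 30 without HC replicate 1. For H and HH there was 1 without C replicate 3, beside 381 genes up and 299 down. In HH and HHC a left-out library leaves a group with 1 mouse, which is assumed to vary like the others. Counts of calls are therefore not given for those fits. Each member called in HH lost its call in at least 1 of them. In HHC, Gstm6 reached 2.53 without CCC replicate 1, and Gstt1 and Gstm7 reached 2.44 and 2.75 without HHC replicate 1. Gpx8 reached -2.08 in HHC without HHC replicate 2.

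The replicate numbers did not pair the mice: deviations of same-numbered mice correlated between -0.290 and 0.179. A replicate block gave 2 calls in HH, Gsta3 and Gsto2, and left the other 7 counts as they were. Over all genes it called 823 up and 217 down in HH, against 1054 and 403 without the block. With the long-arm numbers of the block crossed, a choice made after seeing the data, HH held 4 calls and HHC 0. Over all genes that fit called 903 up and 279 down in HH and 60 and 374 in HHC.

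Scaling by library totals moved the median log2 fold change of all genes in H from -0.15 to 0.00, that of the members from -0.35 to 0.02 (21 above and 20 below 0), and the calls over all genes from 766 up and 626 down to 930 and 403; RLE gave 651 and 748. In HC it moved the median of all genes from 0.27 to 0.52 and in HHC from -0.06 to -0.22. Depth limits Gpx6, Gsta2 and Gstp3, tested at a mean under 1 CPM per kb.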

Other observations

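Among the 110 listed genes around the enzymes, DESeq2 called the HH effect as above the HHC effect for 9 and below it for 4, beside 8.95% of all genes. By edgeR 5.83% of all genes were called, and 0.815% had an adjusted p under 0.05. Selenom and Slc3a2 were among the genes called by DESeq2 and were picked after their values were seen. Selenom, a selenoprotein of the endoplasmic reticulum, stood at 9.39 and 14.0 CPM in CC_l, 103 and 63.0 in HH, 19.3 and 20.2 in CCC, and 8.89 and 28.3 in HHC. Both HH mice lay above both controls, and the HHC mice lay on either side of theirs. The difference of log2 fold changes was 2.92 (SE 0.66, edgeR adjusted p = 0.0488). Selenom was also called in H (2.04, SE 0.39, edgeR adjusted p = 0.0123). Slc3a2, the heavy chain of amino acid transporters that include the cystine carrier, stood at 51.1 and 54.0 CPM in CC_l, 279.9 and 151 in HH, 63.6 and 150.3 in CCC, and 38.4 and 56.4 in HHC. The difference was 3.21 (SE 0.67, edgeR adjusted p = 0.037). Both differences were called under every alternative fit, including those without a library. Progenitor and endothelial markers had the same signs, with medians of 2.93 and 2.67 in HH and of -1.22 and -1.99 in HHC, and their part was not tested.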
